A study of Mus musculus with 9 samples.

Results

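The genes of the mitochondrial respiratory chain were described in mouse brain tumor libraries, by complex, from a table of read counts per gene. Members were all rows whose gene symbol starts with *Nduf*, *Uqcr*, *Cox* followed by a digit, or *Atp5*, or is *Sdha*, *Sdhb*, *Sdhc* or *Sdhd*, which gave 101 of 24421 rows. The rule used names only and no measured value. It took 36 subunit genes of complex I and 7 of its assembly factors, 4 genes of complex II, 8 of complex III, 20 subunit genes of complex IV with their tissue isoforms and 9 of its assembly factors, and 15 subunit genes of complex V. It also took 2 factors, *Atp5s* and *Atp5sl*, which are listed beside complex V by their symbols alone. The subunits that mitochondrial DNA encodes have no row in this table and were not analysed here.

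SB28 cells are a GFP-expressing line of mouse glioma, and BAL101553 is the oral prodrug of an agent that disrupts microtubules and activates the spindle assembly checkpoint. The study asked how this drug, given to C57BL/6 mice with SB28 tumors in the brain, changes the tumor cells. Of the 9 libraries, 3 came from mice given vehicle (control), 3 from mice given BAL101553, and 3 were labelled astrocytes, also from brain of BAL101553-treated C57BL/6 mice. The study's methods describe a sort of CD45-, CD11b- and GFP+ cells for the tumor samples, whereas the labels call the control and BAL101553 material whole tissue, and the text does not describe the astrocyte group. All tumors came from 1 implanted cell line. In the paper, treated mice were killed later than controls to match tumor volume. On that schedule drug and time of growth cannot be told apart. The paper states 2 ex vivo samples per group, whereas the table holds 3, and its data statement names another deposit. Whether the sort, schedule and methods it describes apply to these libraries is therefore not certain. The paper calls its 2 samples per group biological replicates. For the 3 libraries per group here, nothing says which came from separate mice. The p-values thus measure the spread between these libraries, which may be technical.

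The respiratory chain sits in the inner mitochondrial membrane. Complex I takes electrons from NADH and complex II from succinate, complex III passes them from ubiquinol to cytochrome *c*, and complex IV hands them to oxygen. Complexes I, III and IV pump protons as they do so, and complex V, the ATP synthase, uses the returning protons to make ATP. Most subunits are encoded in the nucleus, and nuclear respiratory factor 1 (NRF1), the ETS-family factor GABP and YY1 are known to bind the promoters of many of them, together with coactivators of the PGC-1 family and the nuclear receptor encoded by *Esrra*.

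Total counts per library ranged from 24540452 to 28761388 in control, from 26667789 to 34013875 in BAL101553 and from 22919523 to 29230743 in the astrocyte group. Levels are given as CPM, counts scaled to a common total per library with TMM factors from all 9 libraries, and levels of different genes were compared only per kilobase of transcript. Within groups, counts of any pair of libraries varied beyond sampling noise (chi-square over its degrees of freedom, 14.3 to 64.9), so no pair was merged as repeat deposits of 1 library. In the control and BAL101553 libraries *Ptprc*, which encodes CD45, was at most 0.337 CPM and the oligodendrocyte marker *Mog* at most 0.337 CPM. In the libraries labelled astrocytes the 7 astrocyte markers summed to between 11785 and 14508 CPM, the 6 oligodendrocyte markers to between 10282 and 12723 CPM and the 7 microglia and macrophage markers to between 425 and 915 CPM. The markers thus did not show these libraries to be astrocytes alone, and they are called the libraries labelled astrocytes.

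Promoter sequence of the members was read from RefSeq on GRCm38.p6, in windows from 250 bases before to 50 bases after the annotated start, and 80 of the 101 members had an entry. The NRF1 motif, searched on both strands as GCGCA, any 1 base and GCGC, was present in 19 of these 80 windows (23.8%), in 1402 of 27025 windows of all genes (5.19%) and in 1111 of the 9609 windows of genes tested in the comparison of BAL101553 with control (11.6%). The windows below are shown because both genes were lower after BAL101553 (described further on) and their match begins over 50 bases upstream of the RefSeq start. Capitals mark the motif. That of *Atp5h*, chr11:115420026-115420085 on the minus strand, begins 141 bases before the start, and that of *Ndufa11*, chr17:56717677-56717736 on the plus strand, begins 60 bases before it.
Atp5h: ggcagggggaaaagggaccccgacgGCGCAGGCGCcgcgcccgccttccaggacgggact
Ndufa11: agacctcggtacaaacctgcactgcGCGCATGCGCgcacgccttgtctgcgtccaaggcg

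The NRF1 motif was present in 5 of 20 members called lower after BAL101553 (25%) and in 14 of the 60 others (23.3%). The ETS motif CCGGAAGT was found in 9 of 80 members (11.2%), beside 4.31% of all windows and 9.12% of windows of tested genes. The YY1 motif AANATGGCG was found in 11 members (13.8%), beside 2.76% and 5.96%. The TATA motif TATAAA was found in 8 members (10%), beside 15.7% and 8.7%. The ETS, YY1 and TATA motifs were present in 10%, 5% and 5% of the members called lower. Among the members not called they were present in 11.7%, 16.7% and 11.7%. A relation between motifs and calls was not tested. A match is only a run of letters in the window and does not show that the factor binds there.

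Levels per kilobase differed widely among the members. *Atp5b*, the catalytic beta subunit of the ATP synthase, had the highest level in all groups, with a mean of 585 CPM per kilobase in control, 443 in BAL101553 and 335 in the libraries labelled astrocytes. *Cox4i1*, the widely expressed isoform of a nuclear subunit of complex IV, followed with 303 CPM per kilobase over all 9 libraries, and *Atp5a1*, the alpha subunit of the ATP synthase, with 256. The highest members of the other complexes were *Uqcrh* with 142, *Ndufb9* with 123 and *Sdhd* and *Sdha* with 71.0 and 70.8 CPM per kilobase, the last pair being nearly level. The highest of the assembly factors was *Cox17*, a copper chaperone, with 72.3 CPM per kilobase. *Ndufs5* and *Cox8c* were listed at 0 in every library. For *Ndufs5*, an accessory subunit of complex I, 41.2% of the 50-base windows of its transcript also occur in 1 other gene, and how reads shared between genes were counted is not stated.

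The members together took between 0.801% and 0.844% of all counts in control, between 0.687% and 0.716% in BAL101553 and between 0.715% and 0.820% in the libraries labelled astrocytes. On the CPM scale their sum was 8973, 8731 and 9284 in the control libraries and 7135, 7478 and 7177 in the BAL101553 libraries. All BAL101553 libraries thus lay below all control libraries, on either scale. The mean sum was 8996 CPM ± 277 (SD, n = 3) in control and 7263 CPM ± 187 in BAL101553, a ratio of 0.807. Between libraries of 1 group the members varied little. The median coefficient of variation over members at 1 CPM or more was 7.31% in control, 8.34% in BAL101553 and 6.78% in the libraries labelled astrocytes. In bulk samples, fewer cells of a type and less RNA per cell cannot be told apart.

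**Figure D1:**
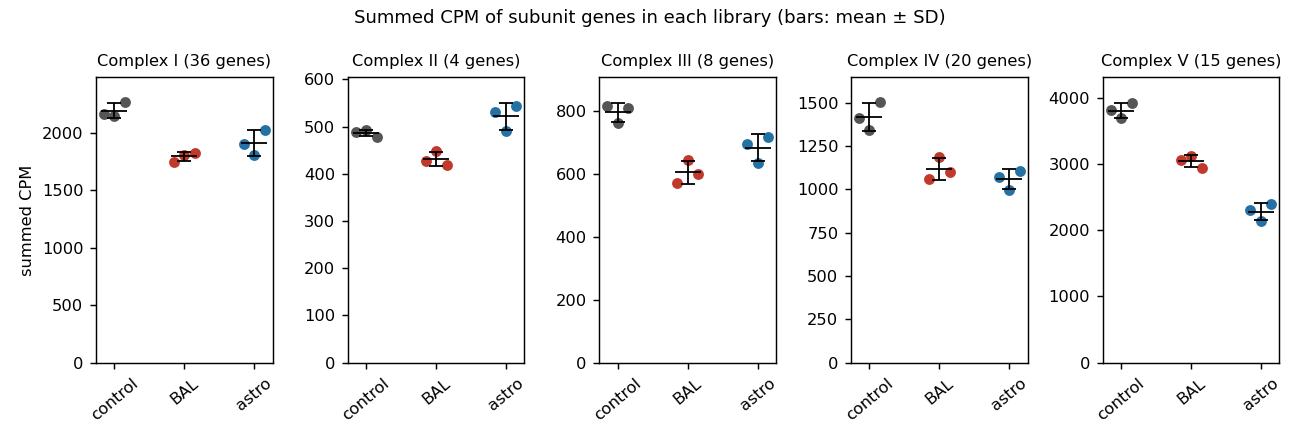
Summed CPM of the subunit genes of each complex (vertical axis, from 0) in each of the 3 control, 3 BAL101553 (BAL) and 3 astrocyte-labelled (astro) libraries, with bars for the mean ± SD. In every complex the 3 BAL101553 libraries sit below the 3 control libraries, and complex V falls further in the libraries labelled astrocytes, to between 2141 and 2393 CPM.

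By complex, the ratio of the mean sum in BAL101553 to that in control was lowest for complex III, at 0.760, followed by 0.788 for complex IV, 0.800 for complex V, 0.819 for complex I and 0.887 for complex II. Complex III summed to 818, 764 and 811 CPM in the control libraries and to 573, 645 and 601 CPM in the BAL101553 libraries. Complex I summed to between 2141 and 2266 CPM in control and between 1745 and 1826 CPM in BAL101553, and complex IV to between 1341 and 1502 CPM and between 1062 and 1189 CPM. Complex V took the most reads, with 3685 to 3914 CPM in control and 2939 to 3125 CPM in BAL101553, and complex II the fewest, with 479 to 493 CPM and 419 to 449 CPM. The groups did not overlap in any of the 5 complexes. The 7 assembly factors of complex I summed to between 96.6 and 103 CPM in control and between 86.9 and 92.9 CPM in BAL101553, without overlap, and the 9 of complex IV to between 177 and 201 CPM and between 161 and 183 CPM, with overlap. No test was made on these sums.

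BAL101553 was then compared with control gene by gene, and errors of log2 fold changes are standard errors (SE). The test was edgeR's quasi-likelihood test on 12633 genes, all of which entered the Benjamini-Hochberg adjustment. Of the 92 members tested, 24 were lower at an adjusted p under 0.05 and 0 higher, beside 6.09% of all genes called lower and 8.64% called higher. At an unadjusted p under 0.05, 52 members were lower and 0 higher in edgeR, and 0 were higher at an adjusted p under 0.05 in DESeq2 or limma-trend. Unadjusted p-values were counted for members only, so no share of all genes stands beside such counts. *Ndufa4l2* was too low to enter these tests. It was called higher with a filter of at least 1 count in any library and with all 9 libraries in one model. Most of its BAL101553 counts came from BAL101553 2, so these calls are given as a description (further on). The log2 fold change of BAL101553 over control was below 0 for 82 of the 92 members, with a median of -0.26, beside a median of 0.02 over all genes, of which 6128 were below 0. In 57 members all BAL101553 libraries lay below all control libraries, beside 19.6% of all genes. In none of those tested did all lie above, beside 20.1%, though they did in *Ndufa4l2*, which was not tested. The remaining 9 members were not tested because their counts were too low, among them all 8 tissue isoforms.

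The number of members called depended on the libraries. It was 0 without control 3 (37 lower and 1 higher at an unadjusted p under 0.05 in edgeR), 2 without control 1, 14 without control 2, 7 without BAL101553 1, 22 without BAL101553 2 and 2 without BAL101553 3. Over all genes, 193, 458, 1260, 1133, 1712 and 668 were called in these fits, in the same order. The median over the members tested stayed between -0.34 and -0.25 in these fits and in those with 2 libraries per group, in which between 0 and 26 members were called. With libraries scaled to total counts, 10 members were called and the median was -0.18, beside 0.10 for all genes.

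**Figure D2:**
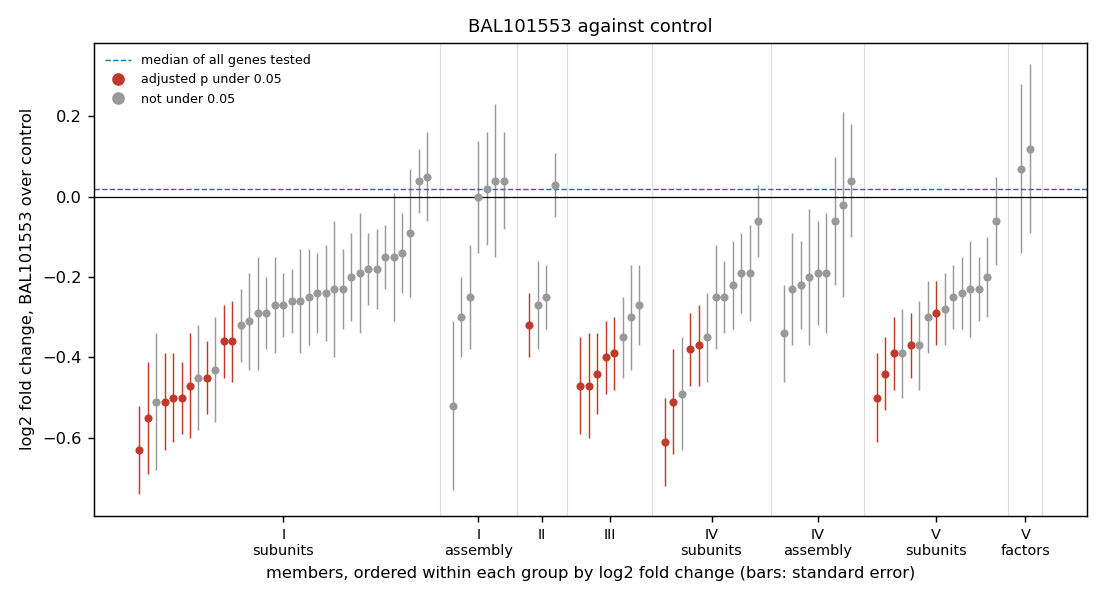
Log2 fold change of BAL101553 over control for the 92 members tested (vertical axis), ordered within each complex, with standard errors as bars, red where edgeR's quasi-likelihood test gave an adjusted p under 0.05 and grey elsewhere; the dashed line is the median of all genes tested, 0.02. The 24 red points are all below 0 and all belong to subunits, while the 18 assembly factors and related factors are grey. Of all genes tested, 6.09% were called lower.

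Members are mostly short transcripts, with a median of 742 bases, and short transcripts as a whole were lower after BAL101553. Among transcripts under 1000 bases, 15 of 55 members (27.3%) and 108 of 1010 other genes (10.7%) were called lower, with a median log2 fold change of -0.27 and -0.16. From 1000 to 2000 bases the counts were 8 of 27 members (29.6%) and 244 of 2835 other genes (8.61%), with medians of -0.24 and -0.08. At 2000 bases or more they were 1 of 10 members (10%) and 391 of 8614 other genes (4.54%), with medians of -0.25 and 0.07. Once the trend of each library with length and GC content had been removed, 12 members were lower, 10 of them among the 24, and the median was -0.19. With the trend in length alone removed, 8 were lower and the median was -0.17. Over all genes, 1604 and 1511 were called in either direction in these 2 fits, beside 1860 without the removal. The medians of all genes were 0.00 and 0.01. In each of these fits 80 of the 92 members were below 0, 79 of them among the 82.

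**Figure D3:**
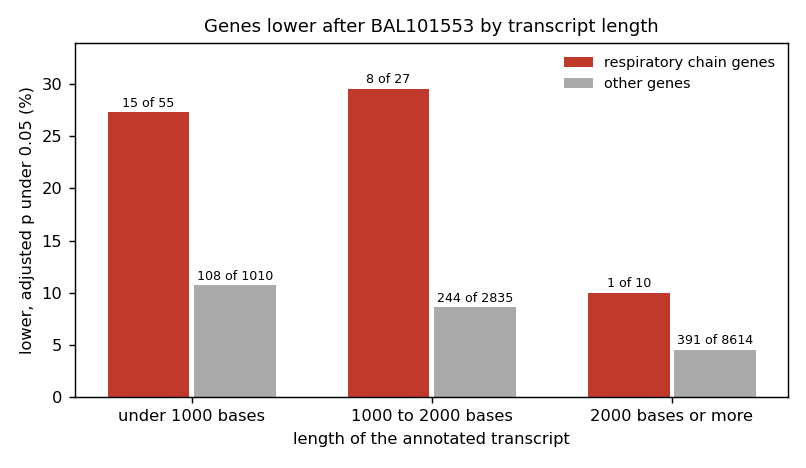
Share of genes lower after BAL101553 at an adjusted p under 0.05 (vertical axis, percent, from 0) by length of the annotated transcript, for respiratory chain genes (red) and all other genes tested (grey), with the count of genes above each bar. Members exceed other genes in each length class, by 27.3% to 10.7% in the shortest, and the longest class holds only 10 members.

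In complex I, 9 of the 35 subunits tested were lower, with a median of -0.27. *Ndufa12*, an accessory subunit of the arm that faces the matrix, was at 72.4, 65.0 and 81.1 CPM in the control libraries and at 46.0, 49.6 and 44.9 CPM in the BAL101553 libraries. All treated values lay well below the lowest control value. Its log2 fold change of -0.63 ± 0.11 (SE, adjusted p = 0.014 in edgeR's quasi-likelihood test) was the lowest of all members, and the call held in 5 of the 6 fits that left out 1 library, being lost without control 3. For *Ndufa12* 53.8% of 50-base windows are shared with another gene, so the value is uncertain. *Ndufa1*, an accessory membrane subunit, was at 35.8, 29.3 and 34.2 CPM in control and at 20.3, 26.0 and 21.1 CPM in BAL101553. The groups did not overlap, and the log2 fold change was -0.55 ± 0.14 (SE, adjusted p = 0.0389). *Ndufv2*, which carries an iron-sulfur cluster in the module that oxidizes NADH, was at 75.2, 62.7 and 75.4 CPM in control and at 46.1, 55.2 and 48.1 CPM in BAL101553, with a log2 fold change of -0.51 ± 0.12 (SE, adjusted p = 0.03). It was the one of 7 core subunits that was called.

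The core subunits of complex I, which carry out electron transfer, had a median of -0.19, and the 28 accessory subunits tested, of which 8 were lower, a median of -0.28. This difference was not tested. *Ndufs1*, the largest core subunit, was at 85.0, 95.1 and 88.5 CPM in control and at 87.9, 93.4 and 93.8 CPM in BAL101553. Its values were intermingled, and its log2 fold change was 0.04 ± 0.08 (SE). *Ndufb9*, the member of complex I with the highest level per kilobase, was at 103, 101 and 107 CPM in control and at 93.8, 76.5 and 92.8 CPM in BAL101553, without overlap, but its log2 fold change of -0.23 did not pass the test (adjusted p = 0.138 in edgeR's quasi-likelihood test). The other accessory subunits called were *Ndufa8*, *Ndufa9*, *Ndufa11*, *Ndufab1*, *Ndufb7* and *Ndufb8*, with log2 fold changes between -0.50 and -0.36. Among them *Ndufab1*, the mitochondrial acyl carrier protein, also serves fatty acid synthesis. *Ndufa11*, whose promoter is shown above, was at 52.4, 47.6 and 52.9 CPM in control and at 36.3, 35.6 and 35.9 CPM in BAL101553. Of the 6 fits without 1 library, *Ndufb7* was called in 4, *Ndufa11* in 3, *Ndufa1*, *Ndufv2* and *Ndufa8* in 2, *Ndufa9* and *Ndufab1* in 1 and *Ndufb8* in none.

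None of the 7 assembly factors of complex I, which help build the complex and are not part of it, was called in edgeR, DESeq2 or limma-trend, 2 were lower at an unadjusted p under 0.05 in each, and their median was 0.00. *Ndufaf2*, the highest of them per kilobase, was at 16.9, 17.1 and 19.1 CPM in control and at 13.1, 15.7 and 15.6 CPM in BAL101553, with a log2 fold change of -0.25 ± 0.13 (SE, adjusted p = 0.22 in edgeR's quasi-likelihood test). *Ndufaf3* had the lowest value, -0.52, with a standard error of 0.21.

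In complex II, which also works in the tricarboxylic acid cycle, 1 of 4 subunits was lower. *Sdhb*, the iron-sulfur subunit, was at 91.3, 89.4 and 92.8 CPM in control and at 73.5, 71.4 and 72.8 CPM in BAL101553. Libraries of 1 group were close together and the groups far apart, and the log2 fold change was -0.32 ± 0.08 (SE, adjusted p = 0.031 in edgeR's quasi-likelihood test), though the call was lost in each of the 6 fits that left out 1 library. *Sdhc* and *Sdhd*, the membrane anchors, were at -0.25 and -0.27 on the log2 scale, without overlap between the groups, and did not pass the test (adjusted p = 0.0633 and 0.122). *Sdha*, the flavoprotein that oxidizes succinate, was at 161, 169 and 156 CPM in control and at 161, 171 and 160 CPM in BAL101553. Its groups overlapped fully, and its log2 fold change was 0.03 ± 0.08 (SE, adjusted p = 0.838).

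In complex III, 5 of 8 subunits were lower and all 8 were below 0, with a median of -0.40. *Uqcrc2*, a core protein, was at 116, 103 and 123 CPM in control and at 70.8, 94.7 and 81.2 CPM in BAL101553. The groups did not overlap, and BAL101553 2 was the nearest to control. The log2 fold change was -0.47 ± 0.13 (SE, adjusted p = 0.046 in edgeR's quasi-likelihood test). *Uqcr11*, a small subunit, was at 74.8, 58.9 and 76.5 CPM in control and at 50.4, 52.0 and 48.5 CPM in BAL101553, with a log2 fold change of -0.47 ± 0.12 (SE, adjusted p = 0.038). *Uqcrq*, a small ubiquinone-binding subunit, was at 66.8, 73.7 and 78.2 CPM in control and at 51.4, 51.1 and 58.5 CPM in BAL101553, with a log2 fold change of -0.44 ± 0.10 (SE, adjusted p = 0.0287). In both the groups were separate. *Uqcrfs1*, the Rieske iron-sulfur protein, and *Uqcrc1*, the other core protein, were called at -0.40 and -0.39. *Uqcrh*, the hinge protein, was at 83.0, 68.6 and 82.1 CPM in control and at 62.9, 65.3 and 64.4 CPM in BAL101553, and its log2 fold change of -0.27 did not pass the test (adjusted p = 0.101). Of the 5 subunits, each was called in 1 of the 6 fits that left out 1 library.

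Cytochrome *c*, the carrier between complexes III and IV, is encoded by *Cycs*, which is not a member. *Cycs* was at 196, 202 and 230 CPM in control and at 146, 138 and 162 CPM in BAL101553, without overlap, with a log2 fold change of -0.49 ± 0.10 (SE, adjusted p = 0.0218 in edgeR's quasi-likelihood test). *Cyc1*, the cytochrome subunit of complex III, was at -0.22 and did not pass the test (adjusted p = 0.151).

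In complex IV, 4 of the 12 subunits tested were lower and all 12 were below 0, with a median of -0.30. *Cox5a*, an accessory subunit, was at 124, 106 and 117 CPM in control and at 72.1, 84.2 and 70.8 CPM in BAL101553. Every treated library lay well below every control library, and the log2 fold change was -0.61 ± 0.11 (SE, adjusted p = 0.0149 in edgeR's quasi-likelihood test). *Cox7b*, a small membrane subunit, was at 153, 127 and 152 CPM in control and at 92.3, 117 and 94.3 CPM in BAL101553, with a log2 fold change of -0.51 ± 0.13 (SE, adjusted p = 0.0374). *Cox4i1* was at 244, 243 and 270 CPM in control and at 179, 204 and 196 CPM in BAL101553, with a log2 fold change of -0.38 ± 0.09 (SE, adjusted p = 0.0341). Neither gene had overlapping groups. *Cox5b*, the zinc-binding subunit, was called at -0.37. The log2 fold change was -0.06 for *Ndufa4*, a subunit long counted to complex I, and -0.25 for both *Cox8a* and *Cox6a1*, and none of these passed the test. *Cox5a* was called in 3 of the 6 fits without 1 library, *Cox7b* in 2 and *Cox4i1* and *Cox5b* in 1.

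None of the 9 assembly factors of complex IV was called in edgeR, DESeq2 or limma-trend, and 1 was lower at an unadjusted p under 0.05 in each. Their median was -0.19. *Cox17* was at 37.4, 41.0 and 45.0 CPM in control and at 34.9, 32.5 and 38.0 CPM in BAL101553, with overlap and a log2 fold change of -0.22 ± 0.11 (SE, adjusted p = 0.193 in edgeR's quasi-likelihood test). *Cox10* and *Cox15*, which make the heme of complex IV, were at -0.23 and 0.04. Exons of *Cox16* and *Cox17* overlap those of other genes on the same strand over 53.9% and 57.9% of their length, so their values are uncertain.

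In complex V, 5 of 15 subunits were lower and all 15 were below 0, with a median of -0.29. *Atp5d*, the delta subunit of the central stalk, was at 159, 138 and 168 CPM in control and at 117, 110 and 99.3 CPM in BAL101553. The groups were separate, with a log2 fold change of -0.50 ± 0.11 (SE, adjusted p = 0.0242 in edgeR's quasi-likelihood test). *Atp5h*, a subunit of the peripheral stalk whose promoter is shown above, was at 112, 113 and 131 CPM in control and at 87.4, 88.7 and 86.0 CPM in BAL101553, with a log2 fold change of -0.44 ± 0.09 (SE, adjusted p = 0.023). *Atp5o*, which joins that stalk to the catalytic head, was at 192, 213 and 221 CPM in control and at 169, 154 and 153 CPM in BAL101553, with a log2 fold change of -0.39 ± 0.09 (SE, adjusted p = 0.0315). In both genes the highest treated library lay below the lowest control. *Atp5g1*, a gene for the rotor ring, was called at -0.37, and *Atp5f1*, of the peripheral stalk, at -0.29. *Atp5b* was at 1160, 1050 and 1150 CPM in control and at 863, 937 and 747 CPM in BAL101553, also without overlap, and its log2 fold change of -0.39 ± 0.11 (SE) just missed the test (adjusted p = 0.0537). *Atp5d* was called in 3 of the 6 fits without 1 library, *Atp5h* in 2, *Atp5o* and *Atp5g1* in 1 and *Atp5f1* in none. Shared 50-base windows make up 66.0% of *Atp5g1*, 87.4% of *Atp5g2* and 50.5% of *Atp5h*, so these values are uncertain.

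The factors *Atp5s* and *Atp5sl*, listed beside complex V by their symbols alone, were not called. *Atp5sl* was at 5.29, 5.08 and 5.22 CPM in control and at 4.28, 6.31 and 6.27 CPM in BAL101553, with overlap and a log2 fold change of 0.12 ± 0.21 (SE), and *Atp5s* was at 0.07. Over all subunits of the 5 complexes, 24 of 74 tested were lower, with a median of -0.29. Over the assembly and related factors, 0 of 18 were lower in edgeR, DESeq2 or limma-trend, with 3 lower at an unadjusted p under 0.05 in each and a median of -0.12. Over all genes 6.09% were called lower in edgeR, and 0 of so few factors is near that share. The difference between the 2 sets was not tested, and the factors had lower counts, with a summed level of 288 to 312 CPM in control against 8423 to 8971 CPM for the subunits.

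Other genes of the pathway were read from lists, beside 6.09% of all genes called lower and a median of 0.02. Of 38 further assembly factors and inhibitors tested, 1 was lower, with a median of -0.14. That gene, *Sdhaf1*, which serves the assembly of complex II, was at 7.22, 7.05 and 6.31 CPM in control and at 3.73, 4.97 and 4.09 CPM in BAL101553, with a log2 fold change of -0.68 ± 0.19 (SE, adjusted p = 0.0489 in edgeR's quasi-likelihood test). Of 16 genes of the tricarboxylic acid cycle and pyruvate dehydrogenase, 1 was lower, *Dlat*, at -0.41, and the median was -0.22. Of 77 genes of the mitochondrial ribosome, 8 were lower, with a median of -0.25. Of 89 genes of the cytosolic ribosome, 28 were lower, with a median of -0.38.

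Among 11 regulators tested, 1 was lower and 1 higher. *Esrra* was at 38.9, 37.1 and 42.1 CPM in control and at 26.9, 24.9 and 28.6 CPM in BAL101553. The groups were far apart, with a log2 fold change of -0.55 ± 0.10 (SE, adjusted p = 0.0184 in edgeR's quasi-likelihood test). *Ppargc1b*, a coactivator of the PGC-1 family, was at 0.673, 0.720 and 1.05 CPM in control and at 1.68, 4.38 and 1.86 CPM in BAL101553, with a log2 fold change of 1.69 ± 0.45 (SE, adjusted p = 0.0436). It was near the low end of the range, and BAL101553 2 held the highest value. *Nrf1*, *Gabpa* and *Yy1*, which encode the factors of the motifs above, were at -0.21, 0.08 and 0.18 and did not pass the test. *Hif1a*, which encodes a hypoxia-responsive factor, was at -0.08.

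Among markers of other cell types, the sums for astrocytes and for microglia and macrophages were lower after BAL101553 without overlap. For microglia and macrophages the gap was narrow, with 2.88 CPM in the lowest control and 2.87 CPM in the highest BAL101553 library. The 7 astrocyte markers summed to between 940 and 971 CPM in control and between 681 and 797 CPM in BAL101553, most of it *Gja1*. Of the 5 astrocyte markers tested, *Gja1* was called lower at -0.37 and *Slc1a3* higher at 1.57, from a mean of 0.635 to 1.89 CPM, with a median of 0.18, and *Aqp4* was at most 0.210 CPM in these 6 libraries. Of the 4 microglia and macrophage markers tested, *P2ry12* was called lower at -1.88, while *Csf1r*, at 0.63, lay higher without overlap and was not called. *P2ry12* alone went from a mean of 1.74 to 0.463 CPM, while the mean sum of all 7 went from 3.66 to 2.50 CPM. The 6 oligodendrocyte markers summed to between 18.7 and 20.6 CPM and between 15.3 and 18.9 CPM, the 7 microglia and macrophage markers to between 2.88 and 4.49 CPM and between 2.03 and 2.87 CPM, the 5 neuron markers to between 1.55 and 5.65 CPM and between 5.51 and 7.46 CPM, and the 4 endothelial markers to between 36.1 and 42.4 CPM and between 28.7 and 76.4 CPM. *Rbfox3*, a defining marker of neurons, was at 0 in all 6. The part of such cells in the results was not tested.

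The libraries labelled astrocytes were compared with the BAL101553 libraries, which carry the same treatment label. Both comparisons share the BAL101553 libraries. Most genes differed, so calls are common: 85.1% of 15314 genes passed edgeR's quasi-likelihood test, 46.3% higher and 38.9% lower in the libraries labelled astrocytes. Of 97 members tested, 29 were higher, 35 lower and 33 not called, with a median log2 fold change of -0.03, beside 0.18 over all genes. Without the 5 that passed the filter on low counts only through the libraries labelled astrocytes, 24 of 92 were higher and 35 lower, with a median of -0.09. Groups did not overlap in 33 members that were higher and 36 that were lower, beside 47.6% and 40.2% of all genes. The direction of the median depended on the scaling. It was 0.02 with DESeq2's size factors, 0.15 with the upper quartile and 0.17 with total counts, which also moved the median of all genes to 0.24, 0.36 and 0.39, and the split between higher and lower members to 36 and 31, 41 and 17, and 41 and 16. Against control in place of BAL101553, 19 members were higher and 57 lower, with a median of -0.29, beside 0.25 over all genes. The fits with other scalings and against control tested all 97 members. They and the count of groups without overlap thus keep the 5 members whose higher calls the filter favoured.

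**Figure D4:**
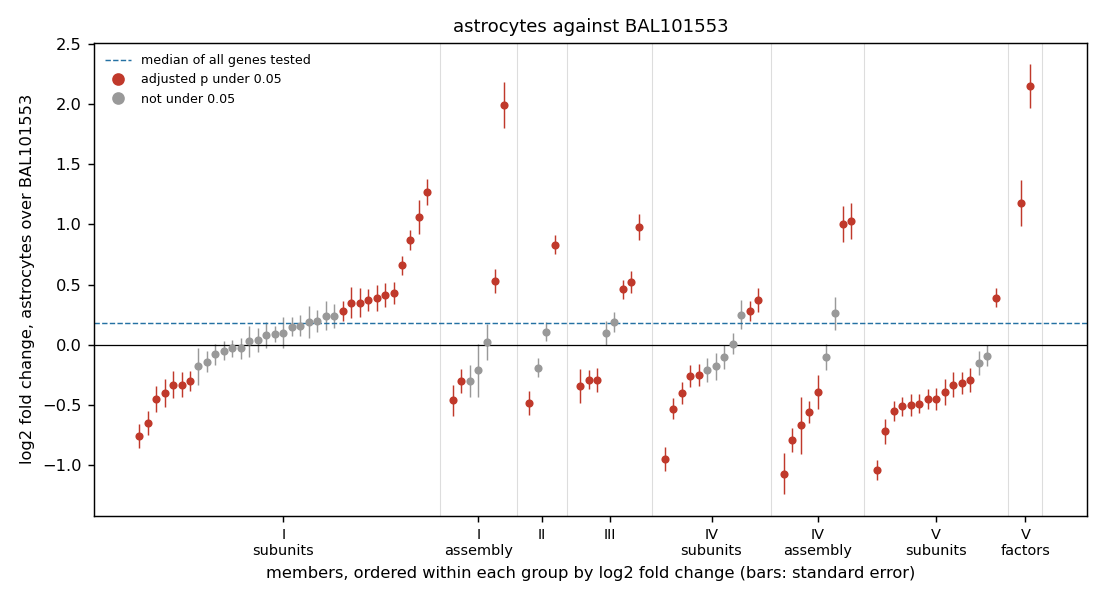
Log2 fold change of the libraries labelled astrocytes over BAL101553 (vertical axis) for 92 of the 97 members tested, ordered within each complex, with standard errors as bars, red where edgeR's quasi-likelihood test gave an adjusted p under 0.05 and grey elsewhere; the dashed line is the median of all genes tested, 0.18. The 5 tissue isoforms, with values from 2.50 upward, are left out. Complexes I to III have points on both sides of 0, and 14 of the 15 complex V subunits lie below it.

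Complex V stood lowest among the complexes, with 12 of 15 subunits lower, 1 higher and a median of -0.45. With libraries scaled to total counts 8 were lower and the median was -0.24, and against control 13 were lower and the median was -0.71. It summed to 2305, 2141 and 2393 CPM in the libraries labelled astrocytes, a ratio of 0.749 to BAL101553, without overlap. *Atp5g2*, a gene for the rotor ring, was at 176, 164 and 175 CPM in BAL101553 and at 82.9, 79.4 and 85.8 CPM in the libraries labelled astrocytes. The groups were far apart, with a log2 fold change of -1.04 ± 0.08 (SE, adjusted p = 5.37e-06 in edgeR's quasi-likelihood test). *Atp5o* was at 97.1, 84.8 and 104 CPM in the libraries labelled astrocytes, with a log2 fold change of -0.72 ± 0.10 (SE, adjusted p = 0.000185), and *Atp5b* at 658, 607 and 658 CPM, with a log2 fold change of -0.39 ± 0.11 (SE, adjusted p = 0.00935). Both were below every BAL101553 library. The call of *Atp5b* was lost with libraries scaled to total counts, at -0.18, or to the upper quartile, at -0.21. The exception was *Atp5h*, at 111, 106 and 124 CPM, with a log2 fold change of 0.39 ± 0.08 (SE, adjusted p = 0.00208). The 2 factors listed beside complex V by their symbols alone were higher. *Atp5sl* was at 23.0, 24.2 and 26.7 CPM, with a log2 fold change of 2.15 ± 0.18 (SE, adjusted p = 8.39e-06), and *Atp5s* was at 1.18.

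The other complexes were mixed. In complex I, 11 of 35 subunits were higher and 7 lower, with a median of 0.10. *Ndufc2*, an accessory subunit, was at 26.3, 33.6 and 27.3 CPM in BAL101553 and at 69.2, 63.5 and 75.2 CPM in the libraries labelled astrocytes, with a log2 fold change of 1.27 ± 0.11 (SE, adjusted p = 1.44e-05 in edgeR's quasi-likelihood test). *Ndufa3*, also accessory, was at 18.0, 25.1 and 25.9 CPM in BAL101553 and at 47.6, 45.5 and 49.2 CPM in the libraries labelled astrocytes, with a log2 fold change of 1.06 ± 0.14 (SE, adjusted p = 0.000166). *Ndufb10*, another accessory subunit, was at 39.7, 44.5 and 43.9 CPM and at 75.9, 74.5 and 82.0 CPM, with a log2 fold change of 0.87 ± 0.08 (SE, adjusted p = 1.86e-05). *Ndufa8* was lower, at 48.8, 44.1 and 51.9 CPM against 89.2, 75.4 and 83.1 CPM, with a log2 fold change of -0.76. Each of these 4 genes had separate groups. Of the 7 core subunits, *Ndufs7*, *Ndufv1* and *Ndufv2* were higher. With libraries scaled to total counts, 18 subunits of complex I were higher and 2 lower, and against control 5 were higher and 18 lower. Among the assembly factors of complex I, *Ndufaf3* was higher by 1.99 and *Ndufaf7* by 0.53, and *Ndufaf2* and *Ndufaf4* were lower, at -0.46 and -0.30.

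In complex II, *Sdha* was at 300, 274 and 295 CPM in the libraries labelled astrocytes and between 160 and 171 CPM in BAL101553, with a log2 fold change of 0.83 ± 0.08 (SE, adjusted p = 1.9e-05 in edgeR's quasi-likelihood test). *Sdhd* was at 63.7, 60.2 and 67.4 CPM against 91.8, 99.6 and 78.1 CPM, with a log2 fold change of -0.48 ± 0.10 (SE, adjusted p = 0.00229). The groups were separate in both genes, which encode parts of 1 enzyme and moved in opposite directions. *Sdhb* was at 0.11 and *Sdhc* at -0.19, and neither passed the test. In complex III, 3 of 8 subunits were higher and 3 lower, and against control 1 was higher and 5 lower. With libraries scaled to total counts 5 were higher, and of the 3 lower calls, *Uqcrc1* included, 0 remained. *Uqcrc2* was at 163, 153 and 166 CPM against 70.8, 94.7 and 81.2 CPM, with a log2 fold change of 0.98 ± 0.11 (SE, adjusted p = 5.22e-05). *Uqcrc1*, the other core protein, was at 166, 149 and 164 CPM against 193, 208 and 191 CPM, with a log2 fold change of -0.29 ± 0.08 (SE, adjusted p = 0.00968). *Uqcrfs1* and *Uqcrh* were higher by 0.46 and 0.52.

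Of the 12 subunits of complex IV without tissue isoforms, 2 were higher and 5 lower, with a median of -0.20, which was 0.01 with libraries scaled to total counts. *Cox7b* was at 50.8, 49.6 and 54.7 CPM against 92.3, 117 and 94.3 CPM, with a log2 fold change of -0.95 ± 0.10 (SE, adjusted p = 4.42e-05 in edgeR's quasi-likelihood test). Its groups were far apart. *Cox4i1* and *Ndufa4* were higher by 0.28 and 0.37; against control *Cox4i1* was at -0.11. Of the 9 assembly factors, *Cox10* and *Cox20* were higher, *Cox20* by 1.03, and 5 were lower, among them *Cox18*, a membrane insertase, at -1.07 and *Cox17* at -0.79.

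Several complex IV subunits have isoforms that are known from particular tissues, such as heart and skeletal muscle for *Cox7a1* and *Cox8b*, lung for *Cox4i2* and testis for *Cox6b2*. In the 6 control and BAL101553 libraries these isoforms were low. The floor of detection, which 3 counts set by counting error alone, was between 0.0884 and 0.135 CPM per library. *Cox7a1* lay above it, at up to 0.560 CPM in BAL101553 3, and *Cox6b2* reached 0.455 CPM in control 2. *Cox4i2* was at 0 in all 3 BAL101553 libraries, at most 0.210 CPM in control, and at 8.08, 9.31 and 8.19 CPM in the libraries labelled astrocytes. Against the floor of 0.118 CPM, the highest of the BAL101553 libraries, its mean of 8.53 CPM was at least 72.0-fold higher. It took between 3.33% and 4.09% of the *Cox4i1* and *Cox4i2* pair in the libraries labelled astrocytes, from CPM per kilobase.

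*Cox8b* was at 0 in all 6 control and BAL101553 libraries and at 0.493, 1.35 and 1.51 CPM in the libraries labelled astrocytes, where its mean was at least 9.42-fold higher than the BAL101553 floor. *Cox6b2* was at most 0.147 CPM in BAL101553 and at 5.70, 5.17 and 7.40 CPM in the libraries labelled astrocytes, where it took between 8.70% and 10.8% of its pair with *Cox6b1*. *Cox7a1* was at 0.239, 0.197 and 0.560 CPM in BAL101553 and at 1.54, 1.93 and 2.34 CPM in the libraries labelled astrocytes. These 4 isoforms and *Ndufa4l2* passed the filter on low counts only through the libraries labelled astrocytes. The filter thus favoured higher calls there, and the calls, that of *Ndufa4l2* included, are given as a description. *Cox6a2* and *Cox7b2* stayed at or under 0.118 and 0.247 CPM in every library and were not tested.

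*Ndufa4l2*, a paralog of *Ndufa4* that is known to be induced by hypoxia, set 1 tumor library apart. It was at 0.0897, 0.114 and 0.0842 CPM in control and at 0.445, 6.98 and 0.206 CPM in BAL101553. Its share of the *Ndufa4* pair was 7.76% in BAL101553 2, beside 0.564% and 0.246% in the others. It was too low to be tested between these groups with the filter used. With at least 1 count in any library its log2 fold change over control was 4.65 ± 1.31 (SE, adjusted p = 0.0477 in edgeR's quasi-likelihood test), and with all 9 libraries in one model 4.62 ± 1.41 (SE, adjusted p = 0.0457). These calls are given as a description. Its counts in the BAL101553 libraries were 13, 177 and 7, and no library was left out of these fits. In the model of all 9 libraries it passed the filter on low counts only through the libraries labelled astrocytes. In the libraries labelled astrocytes it was at 13.2, 15.5 and 14 CPM, or between 10.6% and 14.2% of the pair, and its log2 fold change over BAL101553 was 2.56 ± 0.98 (SE, adjusted p = 0.0384 in edgeR's quasi-likelihood test). Of the 6 fits that left out 1 library, the call was made in that without BAL101553 2, with a log2 fold change of 5.46, and was lost in the other 5.

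**Figure D5:**
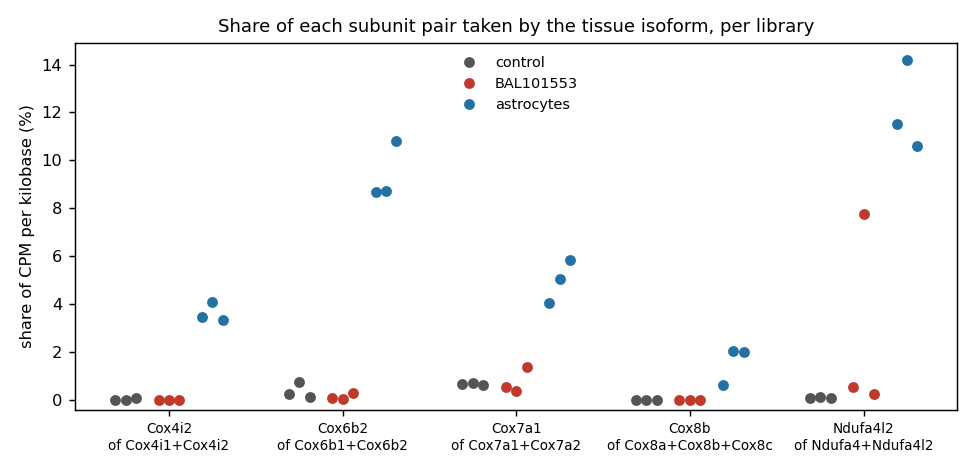
Share taken by the tissue isoform in 5 subunit pairs (vertical axis, percent of CPM per kilobase) in each control (grey), BAL101553 (red) and astrocyte-labelled (blue) library. The 5 isoforms are those that passed the filter on low counts only through the libraries labelled astrocytes. That these libraries are highest in all 5 pairs was thus favoured by the choice. *Cox6a2*, *Cox7b2* and *Cox8c* are not drawn, and the share of *Cox6a2* was highest in BAL101553 2, at 0.0988%. BAL101553 2 lies at 7.76% for *Ndufa4l2*, apart from the other tumor libraries.

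Among the regulators, *Ppargc1a*, the PGC-1 coactivator known from tissues with many mitochondria, was at 37.0, 35.6 and 35.1 CPM in the libraries labelled astrocytes and at most 0.0449 CPM in control. In BAL101553 it was at 0.171, 0.0789 and 0.0295 CPM, near the floor of detection, so no fold change is given. *Tfam* and *Polrmt*, which serve transcription of mitochondrial DNA, were higher by 0.61 and 0.42. The other 8 called regulators were lower, with *Ppargc1b* at -1.42, *Pprc1* at -2.85, *Nrf1* at -0.49, *Gabpa* at -0.95, *Gabpb1* at -1.63, *Tfb2m* at -0.84, *Yy1* at -1.83 and *Hif1a* at -2.32. Of the mitochondrial ribosome, 54 of 77 genes were lower and 6 higher, and of the cytosolic ribosome 83 of 90 were lower and 6 higher, with medians of -0.58 and -1.92. Since these libraries hold markers of several cell types, the cell type in which a member is expressed cannot be told from them.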

How the data were processed

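RNA was sequenced by the authors in 9 libraries, 3 per group, and samples were grouped by their titles. The authors made stranded libraries, mapped reads with TopHat and counted them with HTSeq (0.6.1 in the submitters' processing notes) and featureCounts on mm10. The table they deposited gives raw counts, as whole numbers for each gene. Which counter and gene annotation made the table is not given in the sources used here. Of the rows, 27 carry names turned into dates, at most 0.44% of a library's counts; they were kept in the tests.

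Tests were run with edgeR 4.0.16 in R 4.3.3 (filterByExpr, TMM, quasi-likelihood test, two-sided, Benjamini-Hochberg over all genes tested, threshold 0.05), with only the compared groups in each fit. Standard errors were obtained as log2 fold change over the root of the F statistic. limma 3.58.1 and DESeq2 1.42.0 were alternatives, and length and GC trends were removed with mgcv 1.9.3. The tests were tested on simulated data. Lengths came from GENCODE vM21, in which 100 members matched by symbol and 1 by a synonym. Alternatives were other scalings, filters and tests, all 9 libraries in one model, libraries left out, the replicate block and, chosen after seeing the data, 2 libraries per group and length alone. With up to 34013875 counts per library, counting error is small beside the spread between libraries except near the floor of 3 counts. Floors cover counting error only, whereas standard errors and SDs include the spread between libraries.

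Given with full values were, per complex and comparison, up to 3 called members with the largest change, the member highest per kilobase, tissue isoforms and called regulators. In the comparison of the libraries labelled astrocytes, some of these, most regulators among them, are given as log2 fold changes alone. Other members named were chosen after their values were seen. The members and gene lists were chosen with earlier results of these data known.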

Additional observations from a re-analysis of the deposited data

How the results depend on the processing

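The count of members called after BAL101553 (24, all lower) was the least stable result. It was 10 with libraries scaled to total counts, 41 with DESeq2's Wald test, 42 with all 9 libraries in one model (41 lower and *Ndufa4l2* higher), 12 with the length and GC trend removed and 8 with the length trend alone removed, and between 0 and 26 with libraries left out. The count over all genes (1860) was 2832 with DESeq2, 3022 with all 9 libraries and between 1 and 1757 with libraries left out. The median over members moved from -0.26 to -0.17 with the length trend alone removed. In the comparison of the libraries labelled astrocytes with BAL101553, the median of -0.03 was 0.17 with total counts, 0.15 with the upper quartile, 0.14 with at least 10 counts in every library, 0.04 with the length and GC trend removed and -0.29 against control. With at least 10 counts in every library 41 members were higher and 14 lower, and the median of all genes was 0.01 in place of 0.18. Against control the median of all genes was 0.25. The counts of members and of all genes called in this comparison stayed within 1.5 times under all 17 alternatives. The members behind these counts changed: with at least 10 counts in every library, 38 of the 64 were called again. The cause of these changes was not tested, except that leaving libraries out leaves fewer samples.

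The direction of some single members turned. After BAL101553, *Ndufa4* (-0.06) was 0.02 with total counts and 0.07 with the length trend removed, with or without GC content, and *Atp5sl* (0.12) was between -0.00, without control 2 and BAL101553 2, and 0.29 with libraries left out. In the libraries labelled astrocytes, *Cox6a1* (0.01) was -0.02 with at least 1 count in any library, -0.16 with the length and GC trend removed, -0.26 against control and -0.06 without BAL101553 1 or without astrocytes 1. Against control, *Cox4i1* (0.28) was -0.11 and *Cox6b1* (0.25) was -0.25. *Cox8a* (-0.10) was 0.11 with total counts, 0.08 with the upper quartile and 0.13 with at least 10 counts in every library.

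The replicate numbers are shared between groups. Deviations of same-numbered libraries correlated at 0.10, 0.01 and 0.11 between BAL101553 and control. Between the libraries labelled astrocytes and BAL101553 they correlated at -0.01, 0.06 and 0.04. Libraries of different number lay between -0.15 and 0.05 in the first comparison and between -0.07 and 0.03 in the second. All values were small and nothing states a pairing, so same-numbered libraries were not taken as pairs, though a weak one may exist. With the replicate number as a block, 9 members and 1371 genes were called after BAL101553, and 60 members in the libraries labelled astrocytes.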
